A study of Arabidopsis thaliana with 18 samples.

Results

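These are 55 of the 22746 probe sets measured in Arabidopsis roots, taken because they stood above the wild type in 4 lines with an altered nitrate transporter NRT1.1 and less so in the line with its T101D form. Each had group means at least 0.6 above col, or 1.52-fold, on the scale log2(intensity + 16) in chl1-5, chl1-9, chl1-12 and T101A, and a T101D minus col difference below 0.5 of the mean of those 4 differences. The first condition held for 174 probe sets, or 0.765%. Of these, 113 had T101D at or above the 0.5 limit, and 6 more were left out by gene name. The members were chosen by these group means, so every level relative to col or to T101D is given as a description and carries no test.

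The study measured 18 Affymetrix arrays from 6 genotypes, 3 arrays each, from roots of plants kept in vitro for 8 days on 10 mM NH4NO3. The lines were chl1-5, known as a deletion mutant of NRT1.1, chl1-9, known as a point mutant, chl1-12, a further allele with no lesion stated in the labels, and T101A and T101D, named for forms of NRT1.1 with the threonine T101 replaced by alanine or aspartate. The wild type was col. The labels do not give the background or promoter of the T101 forms, or the number of independent lines. They also do not say that the arrays of a genotype came from separate cultures, so their spread may be technical.

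NRT1.1 sits in the plasma membrane, imports nitrate and acts as a nitrate sensor. Phosphorylation of T101 switches it between modes of transport and signalling. Alanine there cannot be phosphorylated, and aspartate is used as a mimic of the phosphorylated residue. T101A and T101D beside the mutants therefore ask which transcripts go with the form of this residue.

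One gene was listed for 23 members, several for 2 and none for 30, which are given by probe set. The suffix _s_at, with which Affymetrix marks probes shared by several transcripts, occurred in 4 members. Mean intensity in col ran from 1.80 to 4301, with a median of 111. It was under 16 in 3 members and under 100 in 26. The added 16 shrinks the folds given here, most in such dim members, so they are not plain intensity ratios.

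The 4 raised lines stood at similar distances from col. On the log2 scale the median member exceeded col by 1.06 (chl1-5), 1.004 (chl1-9), 0.97 (chl1-12), 0.94 (T101A) and 0.37 (T101D), against medians of all probe sets from -0.03 to 0.00. The mean of the 4 lines ranged from 1.58-fold to 5.63-fold over col with a median of 1.99-fold, and it reached 2-fold in 26 members. All 12 arrays of the 4 lines lay above all 3 col arrays in 44 members, as they did in 2.22% of all probe sets. Taken singly, the 3 arrays of a line were all above col in 54 members for chl1-5 (8.85% of all probe sets), 49 for chl1-9 (9.25%), 50 for chl1-12 (7.13%) and 51 for T101A (9.66%). The named members in which the 12 arrays overlapped col were AT1G73120, AT2G18490, AT2G22880, AT1G59171 and AT4G14060.

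**Figure D1:**
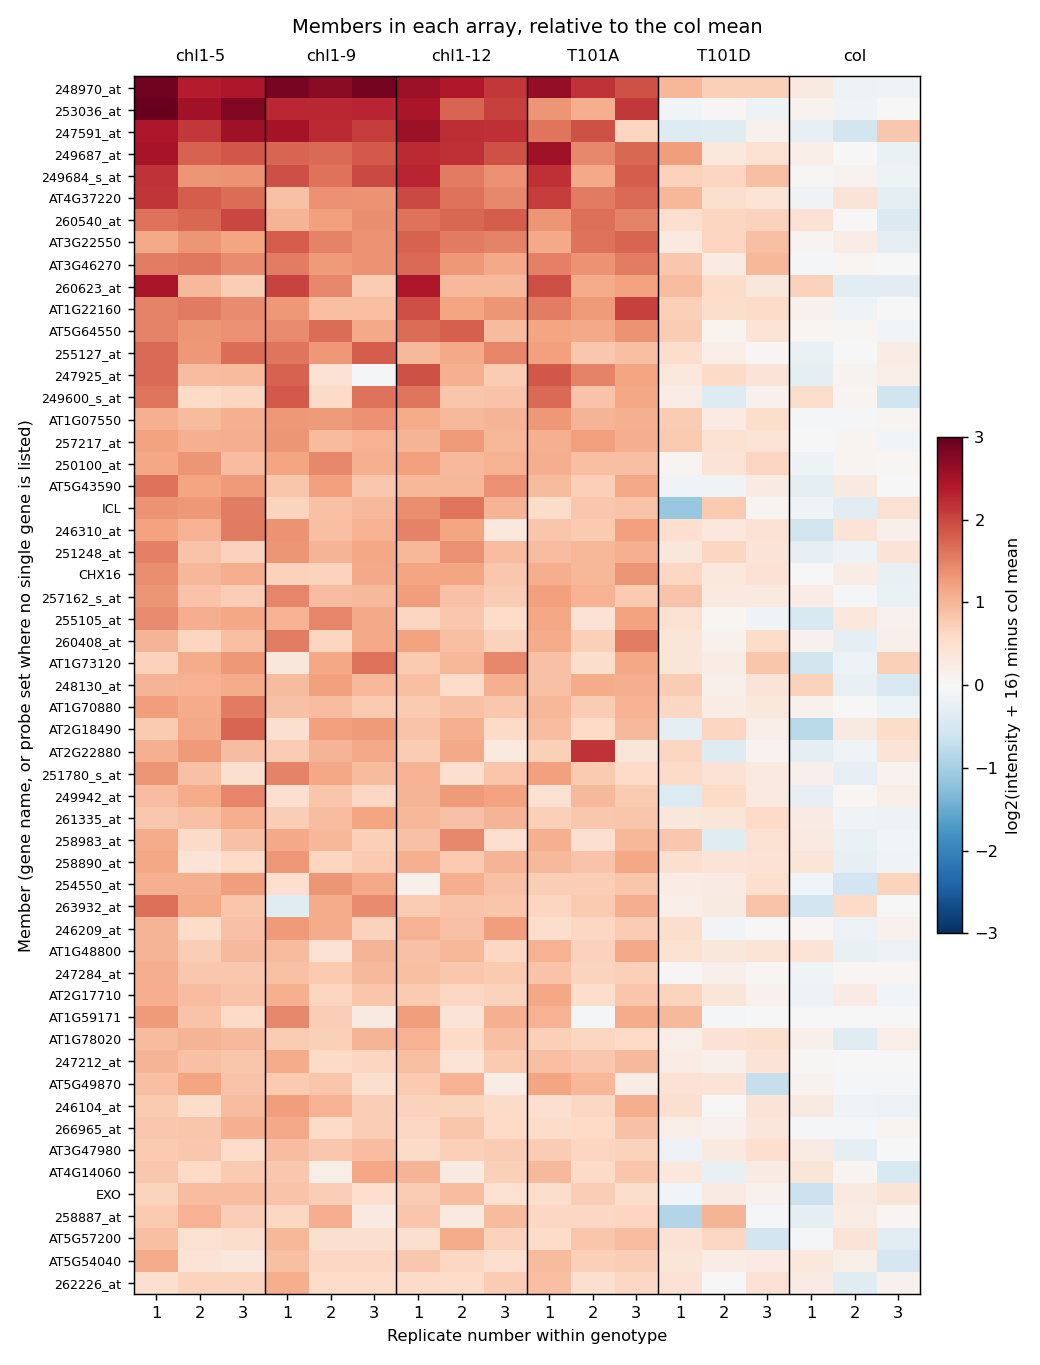
Each row is 1 of the 55 members, in order of the mean of the 4 raised lines, and each column is 1 of the 18 arrays by genotype and replicate number; colour is log2(intensity + 16) minus the col mean. The 12 columns of chl1-5, chl1-9, chl1-12 and T101A are mostly red, while the T101D columns are pale, with a median of 0.37 over the members.

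"Restored" fits few of the members, since T101D mostly lay between col and the other lines. T101D stood above col in 51 members and at or below it in 4. Its difference from col had a median of 36.9% of the mean of the 4 lines, with a range from -9.52% to 49.9%. The share was under 10% in 8 members, 10 to 25% in 9, 25 to 40% in 18 and 40 to 50% in 20. All 3 T101D arrays were above all 3 col arrays in 21 members (6.81% of all probe sets) and below all of them in 0 (9.63%). They were below the 3 T101A arrays in 41 members (6.45%) and below all 12 arrays of the raised lines in 29 (0.892%). In 15 members they lay wholly between col and the 12 arrays (0.154%). The rule capped T101D, so these counts only describe the selection.

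**Figure D2:**
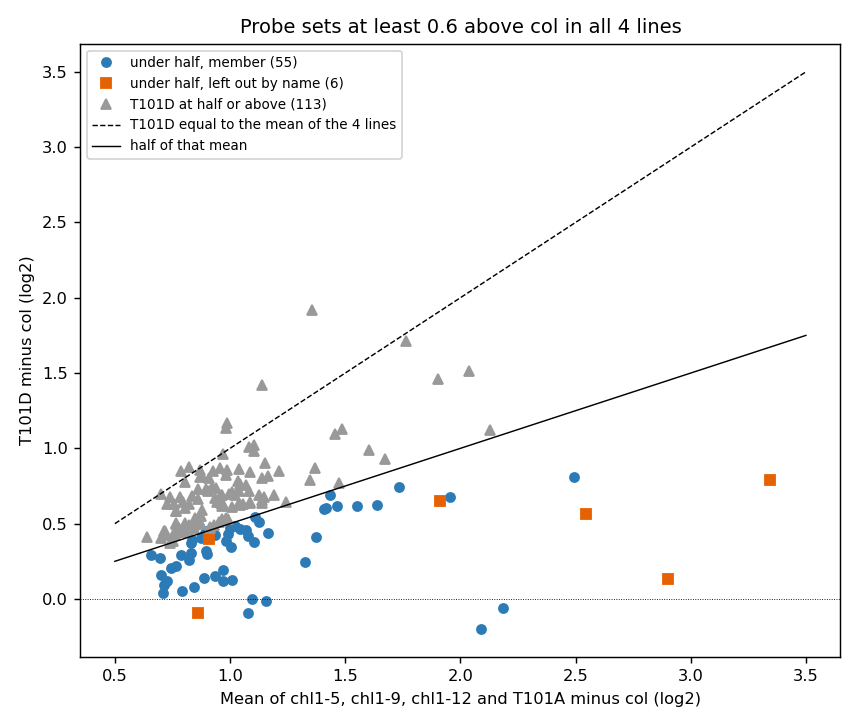
The 174 probe sets at least 0.6 above col in all 4 lines: x axis, mean of the 4 differences from col (log2); y axis, T101D minus col (log2). The 55 members (circles) lie below the solid line at 0.5 of the mean and all but 4 are above 0; triangles are the 113 probe sets on or above the line and squares the 6 left out by name.

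At the 0.6 threshold the named members closest inside had 0.602 (EXO), 0.62 (AT5G54040), 0.634 (AT5G57200) and 0.652 (AT1G78020) in their lowest line. The closest outside were 263184_at with 0.598, ECS1 with 0.595, AT5G48690 with 0.594 and AT3G07920 with 0.593. At the T101D limit the closest member was 258890_at at 49.9%, and the closest named ones were AT3G46270 at 47.9%, AT1G73120 at 47.3%, AT2G17710 at 47.0% and AT1G48800 at 46.0%. Just outside were AT5G37990 at 50.5%, 261910_at at 51.4%, 253985_at at 51.5% and 260030_at at 51.9%.

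AT3G22550, AT1G22160 and AT1G78020 belong to the FCS-like zinc finger (FLZ) family of plant proteins, which bind the energy-sensing kinase SnRK1. AT3G22550 had intensities of 180.1, 208 and 185 in chl1-5, 297, 235 and 209.6 in chl1-9, 286, 245 and 235 in chl1-12, 179, 260.1 and 285 in T101A, 93.8, 123 and 151 in T101D, and 77.6, 87.9 and 56.9 in col. The T101D arrays were all above col and all below the other 12. AT1G22160 had 439, 459 and 419 in chl1-5, 383, 287 and 285 in chl1-9, 604, 354 and 386 in chl1-12, 453, 379 and 656 in T101A, 248, 217 and 222 in T101D, and 161, 132 and 146 in col. Its T101D arrays also lay between col and the rest, and among the raised lines chl1-9 was lowest. AT1G78020 had 693, 719 and 699 in chl1-5, 607, 585 and 729 in chl1-9, 734, 535 and 663 in chl1-12, 581, 555 and 536 in T101A, 405, 474 and 495 in T101D, and 392, 269 and 402 in col. T101D was again between, with its lowest array close to the highest col array. The mean of the 4 lines was 1.47 for AT3G22550, 1.41 for AT1G22160 and 0.83 for AT1G78020 (log2), against 0.62, 0.60 and 0.37 in T101D.

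Of a list of this family written after the members were seen, 11 genes were measured, and 8 of those are no members. Here and below, a gene counts as measured only if a probe set lists it alone. Only AT1G74940 among the 8 was called by limma at an adjusted p of 0.05, and only in chl1-9 (0.81 ± 0.18 log2, SE, adjusted p = 0.0204) and T101A (0.76, adjusted p = 0.0377). It stood at 0.51 in chl1-5 (adjusted p = 0.191), 0.61 in chl1-12 (adjusted p = 0.127) and 0.46 in T101D (adjusted p = 0.359). Of all probe sets, 1.35% were called higher for chl1-5, 1.75% for chl1-9, 0.941% for chl1-12, 1.52% for T101A and 0.171% for T101D. The median of the 8 genes was 0.17, 0.00, 0.23, 0.36 and 0.11 in these 5 lines.

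**Figure D3:**
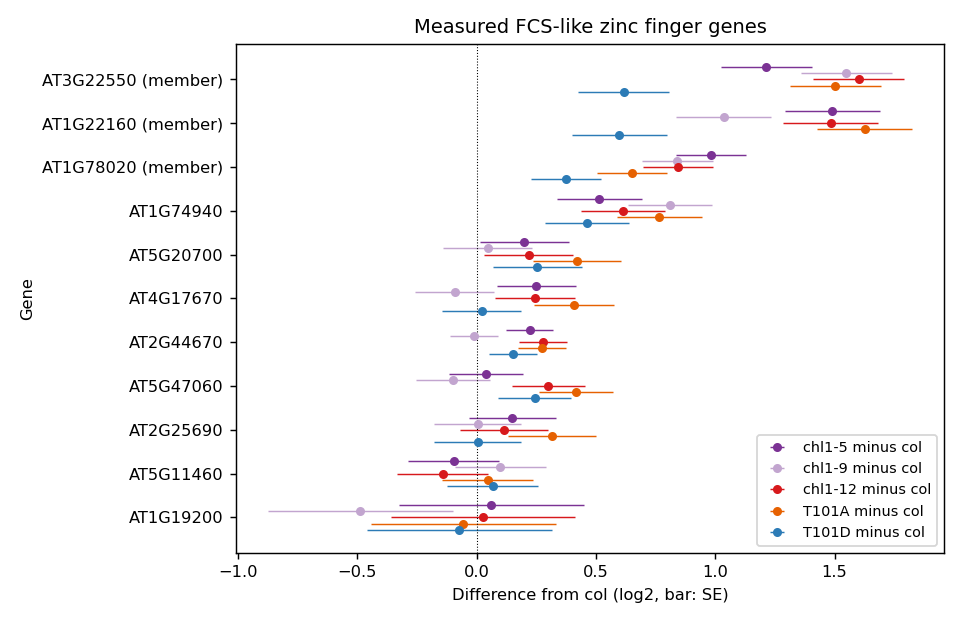
Difference from col (log2, x axis) of the 11 measured FLZ genes (rows) in 5 lines; points are fitted differences and bars SE, 3 arrays per genotype. The 3 members lie at the top with T101D to the left of the 4 other lines, and AT1G74940 follows with a T101D difference of 0.46.

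ICL encodes isocitrate lyase, which acts in the glyoxylate cycle when plants turn lipid into sugar. It had 105, 99.8 and 120.4 in chl1-5, 59.02, 71.5 and 77.02 in chl1-9, 109, 128 and 79.8 in chl1-12, 53.2, 67.2 and 69.3 in T101A, 5.47, 65.1 and 34.2 in T101D, and 27.95, 21.1 and 48.96 in col. The 12 arrays of the raised lines were all above col, while T101D ranged from below every col array to within the T101A arrays. The mean of the 4 lines was 1.08 and T101D was at -0.09 (log2), 1 of the 4 members where T101D did not exceed col.

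AT5G43590 encodes a patatin-like protein, a family of lipid acyl hydrolases. It had 113, 78.2 and 86.01 in chl1-5, 58.4, 82.3 and 57.4 in chl1-9, 67.5, 67.7 and 91.99 in chl1-12, 64.8, 52.8 and 76.1 in T101A, 22.6, 22.6 and 33.2 in T101D, and 18.3, 34.7 and 25.9 in col. All T101D arrays fell within the col range, and all 12 others were above both. The mean of the 4 lines was 2.14-fold, and the T101D share was 0.212%. AT1G48800, of the terpene synthase family, averaged 207 ± 23.6 in chl1-5, 192 ± 43.1 in chl1-9, 195 ± 26.9 in chl1-12, 215 ± 35.9 in T101A, 139.9 ± 5.17 in T101D, and 104 ± 30.7 in col (SD, n = 3 each, as for all means below). Its 12 raised arrays were above col, and T101D overlapped both col and chl1-9.

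AT1G70880 and AT4G14060 belong to the major latex protein-like family, small proteins with a pocket for hydrophobic ligands. AT1G70880 had 349, 315 and 431 in chl1-5, 264, 273 and 246 in chl1-9, 248, 264 and 249 in chl1-12, 289, 242 and 300.4 in T101A, 220.3, 162 and 174 in T101D, and 149.9, 139 and 123 in col. T101D lay between col and the 12 other arrays, and chl1-5 was the highest line. AT4G14060 averaged 621 ± 50.8 in chl1-5, 639 ± 215 in chl1-9, 605 ± 156 in chl1-12, 653 ± 93.9 in T101A, 406 ± 80.2 in T101D, and 378 ± 107 in col. Here col overlapped the raised lines. Of a list of this family, also written after the members were seen, 15 genes were measured, and 1 of the 13 that are no members was called in any line. This gene, AT1G14960, rose by 0.97 ± 0.17 in chl1-5 (log2, SE; limma adjusted p = 0.00631), 1.22 in chl1-9 (adjusted p = 0.000816), 1.09 in chl1-12 (adjusted p = 0.00335) and 1.31 in T101A (adjusted p = 0.000804). In T101D it stood at 0.68 (adjusted p = 0.123), above the limit for a member. Its mean intensities were 4082 in chl1-5, 4869 in chl1-9, 4435 in chl1-12, 5179 in T101A, 3330.5 in T101D and 2089 in col.

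AT4G37220, a membrane protein of the cold acclimation WCOR413 family, was the named member furthest above col, at 3.11-fold over the 4 lines. It had 328, 258 and 233 in chl1-5, 129, 186 and 182 in chl1-9, 293, 225 and 197 in chl1-12, 315, 215 and 238 in T101A, 140, 92.2 and 87.1 in T101D, and 56.8, 86.2 and 47.9 in col. The T101D arrays were all above col, and the highest of them exceeded the lowest chl1-9 array. CHX16 encodes a member of the cation/H+ exchanger family. It had 637, 479 and 510.2 in chl1-5, 388, 378 and 533 in chl1-9, 548, 546 and 419 in chl1-12, 513, 478 and 608 in T101A, 367, 296 and 323 in T101D, and 233, 274 and 199 in col. The T101D arrays lay between col and the 12 others. AT3G47980, a predicted membrane protein of the HPP family, averaged 196 ± 19.9 in chl1-5, 224 ± 10.2 in chl1-9, 191 ± 12.5 in chl1-12, 194 ± 9.21 in T101A, 136 ± 35.1 in T101D, and 115 ± 23.2 in col. T101D overlapped col and lay below all 12 raised arrays.

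AT3G46270 is annotated as receptor kinase-related. It had 475, 489 and 433 in chl1-5, 469.7, 390.1 and 409.6 in chl1-9, 535, 397 and 352 in chl1-12, 466, 413 and 475 in T101A, 281, 184 and 321 in T101D, and 146, 159 and 152 in col. The 4 raised lines differed by at most 0.14 on the log2 scale, and all T101D arrays lay between them and col. AT1G07550, a leucine-rich repeat receptor kinase gene, had 142, 129.7 and 142 in chl1-5, 171, 166 and 181 in chl1-9, 148, 132 and 138 in chl1-12, 171, 137 and 142 in T101A, 112, 73.6 and 93.1 in T101D, and 58.3, 57.1 and 63.9 in col. The order was the same, with chl1-9 the highest line. AT5G49870, a jacalin-type lectin gene, averaged 125 ± 17.3 in chl1-5, 100.4 ± 14.8 in chl1-9, 102 ± 32.9 in chl1-12, 113 ± 41.05 in T101A, 62.4 ± 29.6 in T101D, and 55.4 ± 4.38 in col. Its 12 raised arrays were above col, and the T101D arrays were scattered, at 79.7, 79.4 and 28.2.

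EXO (EXORDIUM) encodes a secreted protein that responds to brassinosteroids and promotes growth. It had 1068, 1279 and 1289 in chl1-5, 1223, 1129 and 951 in chl1-9, 1138, 1271 and 919.9 in chl1-12, 966, 1130.3 and 970.4 in T101A, 623, 796 and 729 in T101D, and 421, 804 and 870.2 in col. The T101D arrays fell within the wide col range and below all 12 others. At 1.64-fold it was the member nearest the 0.6 threshold among those with a single gene.

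**Figure D4:**
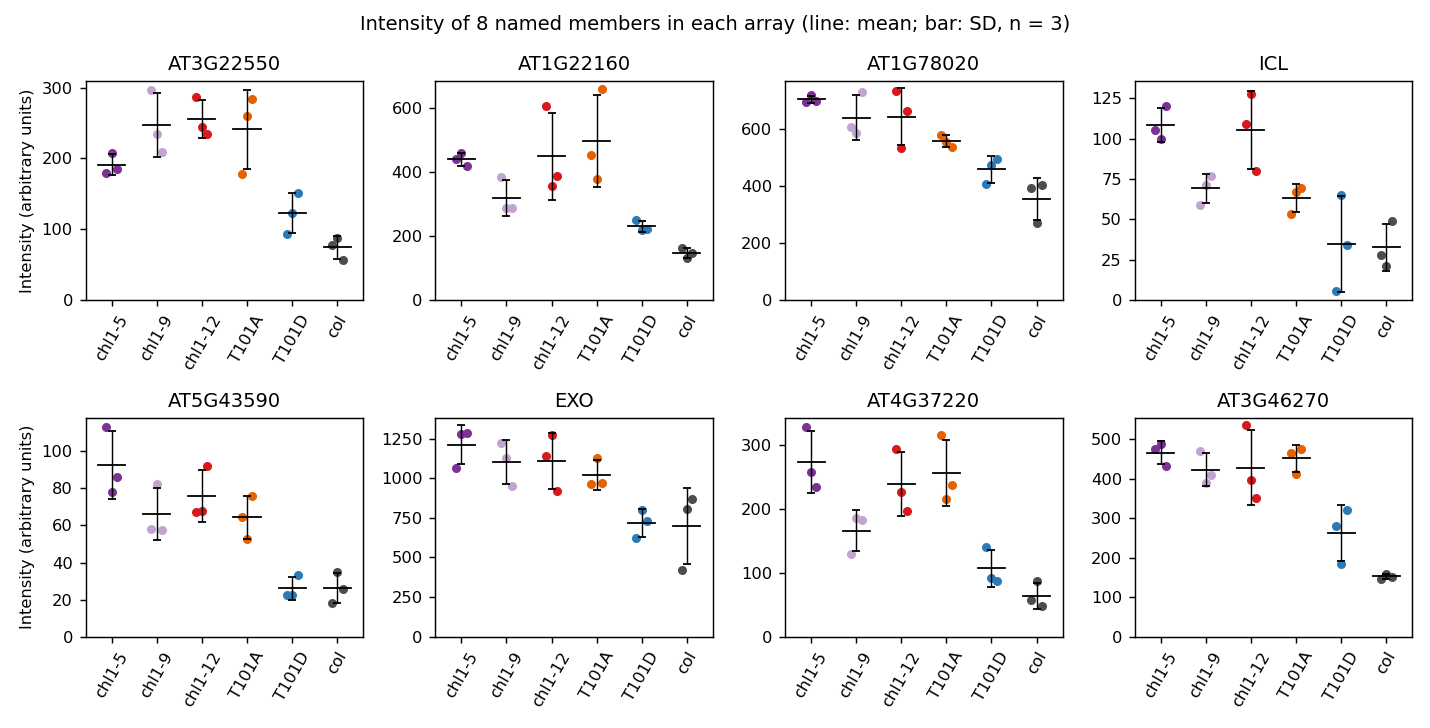
Intensity (arbitrary units, linear axis from 0) of 8 named members in the 18 arrays by genotype; points are arrays, horizontal lines means and bars SD (n = 3). T101D overlaps col for ICL, AT5G43590 and EXO, and lies above col and below the 12 other arrays for AT3G22550, AT1G22160, AT1G78020 and AT3G46270.

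AT2G18490, a C2H2 zinc finger gene, had 41.2, 56.7 and 94.7 in chl1-5, 30.6, 62.3 and 64.6 in chl1-9, 43.9, 52.9 and 33.5 in chl1-12, 46.8, 34.3 and 48.6 in T101A, 11.6, 35.6 and 22.2 in T101D, and 3.01, 23.7 and 32.3 in col. The raised lines and col overlapped, and col itself was widely spread. AT2G22880, which encodes a VQ motif protein, had 87.8, 104 and 79.2 in chl1-5, 68.5, 84.7 and 92.8 in chl1-9, 68.1, 92.8 and 45.01 in chl1-12, 65.4, 207 and 47.8 in T101A, 61.3, 22.2 and 37.4 in T101D, and 25.1, 29.5 and 49.7 in col. T101A replicate 2 stood far above the other T101A arrays, and the raised lines overlapped col.

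AT5G64550, a loricrin-like gene, had 251, 223 and 231 in chl1-5, 239.7, 289 and 193 in chl1-9, 290.4, 318 and 170.2 in chl1-12, 202, 195 and 229 in T101A, 146, 84.5 and 111 in T101D, and 82.9, 82.1 and 74.3 in col. T101D lay between col and the 12 others, at 30.1% of their mean difference. AT1G73120 averaged 693 ± 151 in chl1-5, 732 ± 309 in chl1-9, 712 ± 172 in chl1-12, 611 ± 134 in T101A, 465 ± 110.3 in T101D, and 349 ± 172 in col. Its col arrays were 217, 287 and 544, and the highest of them overlapped the raised lines. AT2G17710 averaged 1682 ± 150.4 in chl1-5, 1569 ± 221 in chl1-9, 1406 ± 74.97 in chl1-12, 1574 ± 345 in T101A, 1146 ± 221 in T101D, and 865 ± 138 in col. AT5G54040, a gene for a protein with Cys/His-rich C1 domains, stood 1.62-fold above col over the 4 lines. AT5G57200, of the ENTH/ANTH clathrin assembly type, stood 1.63-fold above, with T101D arrays at 21.8, 26.6 and 2.61 and col arrays at 10.7, 20.7 and 6.16. AT1G59171 was at background in col, with 1.90, 1.62 and 1.88, and in T101D it had 18.9, 1.24 and 1.73, so its fold rests on values near background.

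The members furthest above col have no listed gene. 248970_at had 2814, 1929 and 2020.3 in chl1-5, 2737, 2460.5 and 2776 in chl1-9, 2231, 1979 and 1633 in chl1-12, 2334, 1699 and 1408 in T101A, 745, 604 and 612 in T101D, and 441, 327 and 334 in col. Its mean over the 4 lines was 5.63-fold, and T101D stood clear of both sides at 32.6%. 253036_at had 187, 100.1 and 124 in chl1-5, 81.1, 80.96 and 82.4 in chl1-9, 94.5, 52.3 and 68.2 in chl1-12, 34.6, 26.8 and 72.4 in T101A, 3.18, 4.75 and 2.36 in T101D, and 5.80, 2.89 and 4.24 in col. Every T101D and col array was under 16 and every other array was above both. 247591_at had 147, 116 and 161 in chl1-5, 156, 127 and 111 in chl1-9, 166, 125 and 123 in chl1-12, 75.5, 97.2 and 31.4 in T101A, 7.23, 7.66 and 17.2 in T101D, and 9.29, 4.68 and 36.8 in col. T101D and col overlapped there, and col replicate 3 exceeded the lowest T101A array. Next among the members with no listed gene came 249687_at, 249684_s_at and 260540_at with means of 1.95, 1.73 and 1.55 (log2), each with T101D wholly between col and the 12 arrays.

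The 4 members with a col mean of 1000 or more had T101D between col and the raised lines by their means. Only in 257162_s_at did T101D arrays overlap the raised lines, with T101D replicate 1 at 2218 and chl1-5 replicate 3 at 2039. 257217_at averaged 9365 ± 501 in chl1-5, 9271 ± 1285 in chl1-9, 9256 ± 1068 in chl1-12, 9387 ± 593 in T101A, 6319 ± 915 in T101D, and 4301 ± 240.5 in col. The 4 raised lines were within 0.03 of each other on the log2 scale, and T101D lay between them and col. Near the T101D limit were 257217_at, with a share of 49.1%, and 261335_at, with 48.1%. Leaving out 1 array kept 257217_at in 13 of 18 settings and 261335_at in 15. 261335_at averaged 7839.5 ± 863 in chl1-5, 8029 ± 1239.7 in chl1-9, 8011 ± 405 in chl1-12, 7063 ± 308 in T101A, 5569.7 ± 563 in T101D, and 4129.7 ± 637 in col, again with no overlap between T101D and either side.

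The rule set no limit on differences among chl1-5, chl1-9, chl1-12 and T101A, and their 6 contrasts were fitted. The same group means chose the members, however, and the 0.6 floor kept out probe sets near col in any 1 of the 4 lines. The counts below are therefore partly fixed by the selection and do not show that the lines act alike. Of 330 tests 0 passed at a limma adjusted p of 0.05, the smallest adjusted p being 0.118, and 33 tests in 14 members had an unadjusted p under 0.05. Calls over all probe sets were also rare, at 0.237% in chl1-9 minus chl1-5, 0.0396% in chl1-12 minus chl1-5, 0.0044% in T101A minus chl1-5, 0.176% in chl1-9 minus chl1-12, 0.611% in T101A minus chl1-9 and 0.044% in T101A minus chl1-12. In that order of contrasts, 8, 3, 6, 7, 6 and 3 members had an unadjusted p under 0.05, against 11.6%, 4.12%, 8.41%, 10.9%, 14.3% and 5.13% of all probe sets. The member medians were -0.02, -0.05, -0.11, 0.01, -0.10 and 0.01 (log2), against -0.02 to 0.03 over all probe sets. The 95% intervals had a median half-width of 0.45, and 290 of 330 lay wholly within 2-fold either way. Smaller differences between lines could go undetected.

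**Figure D5:**
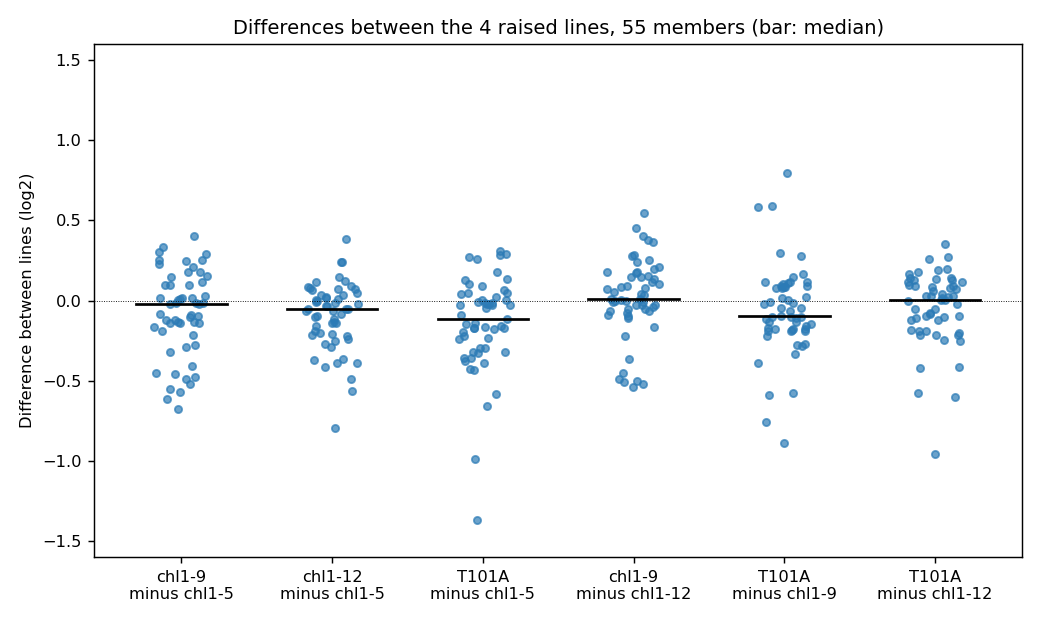
Difference between pairs of the 4 raised lines (log2, y axis; first-named minus second) for the 55 members; points are members and bars medians. The medians lie between -0.11 and 0.01, and the lowest point, at -1.37, is 253036_at in T101A minus chl1-5.

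The largest difference was that of 253036_at, with T101A minus chl1-5 at -1.37 ± 0.24 (log2, SE; 95% interval -1.89 to -0.85; limma adjusted p = 0.118). Without T101A replicate 3, the highest T101A array at 72.4, it was -1.68, with a limma adjusted p of 0.0188. That setting is given because it changed the call. Alternative settings were tried for 18 combinations of member and contrast picked by smallest unadjusted p. The call stayed the same in 491 of 493 results, and the 2 that changed are both given in the section on processing. For 247591_at, T101A minus chl1-5 was -0.98 ± 0.33 (limma adjusted p = 0.469). AT1G70880 stood at -0.45 ± 0.13 in chl1-9 minus chl1-5 (limma adjusted p = 0.2). AT4G37220 stood at -0.67 ± 0.22 in the same contrast (limma adjusted p = 0.263), and AT1G22160 at 0.59 ± 0.20 in T101A minus chl1-9 (limma adjusted p = 0.198). For 248970_at, T101A minus chl1-9 was -0.58 ± 0.19 (limma adjusted p = 0.19). By the means alone, chl1-5 was the highest of the 4 lines in 25 members, chl1-9 in 13, chl1-12 in 8 and T101A in 9.

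The 23 named members lie on all 5 chromosomes, 8 on chromosome 1, 3 on 2, 4 on 3, 3 on 4 and 5 on 5. Of the 46 nearest measured genes on either side of them, 0 reached 0.6 in all 4 lines. Only 0.765% of all probe sets did, so 0 of 46 says little about the neighbours. The median difference of the 46 from col was between -0.04 and 0.02 in each line. These genes lay 1 to 19 genes away, so some do not directly flank the member. AT1G07560, next to AT1G07550, was called in chl1-5 (0.65 ± 0.14 log2, SE, limma adjusted p = 0.0279), chl1-9 (0.79, adjusted p = 0.00587) and T101A (0.63, adjusted p = 0.0333). It stood at 0.46 in chl1-12 (adjusted p = 0.164) and 0.49 in T101D (adjusted p = 0.196). The only other neighbour called was AT3G22570, near AT3G22550, at -0.67 in chl1-9 (limma adjusted p = 0.00117). Of all probe sets, 1.35% were called higher in chl1-5, 1.75% in chl1-9 and 1.52% in T101A, and 1.64% lower in chl1-9.

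None of the 23 members with 1 listed gene is on the lists of class III peroxidases, auxin genes, nitrate-induced genes or cell type markers. The 30 members with no listed gene and the 2 with several could not be matched to a list. Of 55 measured class III peroxidases, which act on cell walls and hydrogen peroxide, 3 rose and 1 fell in chl1-5, 3 and 2 in chl1-9, 2 and 0 in chl1-12, 4 and 1 in T101A, and 1 and 0 in T101D. Over all probe sets, 0.822% were called lower for chl1-5, 1.64% for chl1-9, 0.558% for chl1-12, 0.712% for T101A and 0.0835% for T101D. In the same order, 1.35%, 1.75%, 0.941%, 1.52% and 0.171% were called higher. Of 4 measured nitrate-induced genes, 2 fell in chl1-5 and 2 in chl1-12, 1 rose and 1 fell in chl1-9, and 0 were called by limma in T101A or T101D. The 4 were AT3G25790, AT1G68670, AT1G25550 and AT5G41670. AT3G25790 and AT1G25550 fell in chl1-5 and chl1-12, and in chl1-9 AT3G25790 fell and AT5G41670 rose. They are a small part of that list, so these counts do not stand for nitrate-induced genes in general. The 6 measured auxin genes gave 0 calls by limma in any line.

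Of 6 measured root hair markers, the number that rose was 4 (chl1-5), 2 (chl1-9), 2 (chl1-12), 5 (T101A) and 1 (T101D), with list medians of 0.69, 0.37, 0.59, 0.69 and 0.58 (log2). These markers are the measured part of a longer list. AT3G49960 and AT4G26010 among them are also class III peroxidases, so their calls are in both sets of counts. AT3G49960, a peroxidase of root hairs, rose in T101D by 0.98 ± 0.15 (SE, limma adjusted p = 0.0121). It was the 1 gene called in T101D on either list. RCA, the only gene of the green tissue list with a named probe set, had means of 1539 in chl1-5, 1319.5 in chl1-9, 1315 in chl1-12, 1116 in T101A, 764 in T101D and 1659.5 in col. In T101D it stood at -1.11 ± 0.24 (SE, limma adjusted p = 0.0744). In bulk roots fewer cells of a type and less RNA per cell cannot be told apart, and the part of root hairs or green tissue in the members' levels was not tested. No levels are given for markers of endodermis, xylem, phloem, root cap and dividing cells, and NRT1.1 itself was not analysed here.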

How the data were processed

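Per the labels' protocols, total root RNA was extracted with TRIzol and labelled with the Affymetrix GeneChip 3' IVT Express kit. The authors deposited linear intensity values, 1 column for each of 18 arrays. The software behind these values is not given in the sources used here. Each array's trimmed mean is 500 with 2% cut from each end, so all differences are relative to it. Array medians were 184.5 to 197, 16.5% to 19.5% of probe sets lay under 16, and the median SD within a genotype was 0.232 for the members and 0.158 for all probe sets (log2). The number of arrays limits the precision.

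Without the 64 control probe sets, log2(intensity + 16) was fitted with 1 coefficient for each genotype in limma 3.58.1 (lmFit, eBayes; R 4.3.3), using every array. Adjusted p is Benjamini-Hochberg over 22746 probe sets per contrast, called at 0.05. The fit was tested on simulated data. Tables and plots used Python 3.11.15, numpy 2.4.6, pandas 2.3.3 and matplotlib 3.10.9. Groups and replicate numbers come from sample titles. Gene names come from the platform annotation (1 gene for 13513 probe sets, several for 503, none for 8730), of which 13436 matched a RefSeq table of assembly TAIR10.1 used for names and gene order.

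The members and lists were chosen with earlier results of these data known, and the FLZ and major latex protein-like lists were written after the members were seen. By rule the text names members with 1 gene that are among the 20 most raised, nearest a threshold, lowest in T101D share, or called between lines. The probe sets with no gene, the neighbours and the remaining named members were singled out after their values were seen. A phosphate starvation list had 0 genes that a probe set lists alone, and lists made from words in gene descriptions held 0 members. These word lists were short, with 6 measured probe sets for kinase and 10 for transporter. AT1G07550, a receptor kinase gene, was not among them, so the 0 does not show that members lack such functions. Genes of any list may be on the array under probe sets with no listed gene, and these could not be matched. Promoter motifs were not analysed here.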

Additional observations from a re-analysis of the deposited data

How the results depend on the processing

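The rule chose 55 probe sets, but 144 with a pseudocount of 1 (53 shared), 33 with 64, and 27 among probe sets above the median intensity. Quantile normalization gave 57 (50 shared) and median centring 52 (46 shared). Leaving out 1 array gave 45 (without T101D replicate 2) to 70 (without T101D replicate 1 or col replicate 3), sharing 38 (without col replicate 1) to 54 with the 55, and 17 members were kept in all 18 settings. Calls of members between lines stayed at 0 in all but 2 settings. These were 1 call in T101A minus chl1-9 with the replicate number as a block (248970_at, limma adjusted p = 0.0401) and 1 in T101A minus chl1-5 without T101A replicate 3 (range 0 to 1 without 1 array). Over all probe sets, chl1-9 minus chl1-5 gave 54 calls, 90 with a pseudocount of 64, 129 above the median, 111 with a variance trend on intensity, 10 from the 6 arrays compared, and 19 (without chl1-5 replicate 3) to 56 without 1 array. Leaving out chl1-5 replicate 1 gave 22 and replicate 2 gave 26. chl1-12 minus chl1-5 gave 9, 5 above the median and 7 to 12 without 1 array. T101A minus chl1-5 gave 1, 6 with a pseudocount of 1, 2 with 64, 4 above the lowest quartile, 3 above the median, 3 with quantile normalization, 4 with the replicate block, 2 with the trend, 7 with array weights and 1 to 4 without 1 array. chl1-9 minus chl1-12 gave 40, 99 above the median, 83 with the trend, 12 from the 6 arrays, and 14 (without chl1-12 replicate 1), 17 (without chl1-12 replicate 3) to 51 without 1 array. T101A minus chl1-9 gave 139, 220 with a pseudocount of 64, 218 above the lowest quartile, 362 above the median, 280 with the replicate block, 256 with the trend, 51 with array weights, 12 from the 6 arrays and 37 (without T101A replicate 3) to 138 without 1 array, with 47 to 91 without T101A replicate 1 or 2, chl1-9 replicate 2 or 3, or col replicate 2. T101A minus chl1-12 gave 10, 6 above the median, 5 from the 6 arrays and 7 to 11 without 1 array. Filters test fewer probe sets and the 6-array fits use fewer arrays; otherwise the cause was not tested. Deviations of same-numbered arrays correlated weakly but always positively, at 0.0105 to 0.142, and over 0.1 in 7 of 45 pairs. The labels state no pairing, so the main fit has no replicate term. A shared effect of the replicate number was not tested.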

Other observations

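Within a genotype the members were often highest in replicate 1. Replicate 1 was the highest of the 3 arrays in 158 of 330 combinations of member and genotype (47.9%), against 34.7% over all probe sets. Replicate 2 was the highest in 21.2%, against 30.5%, and replicate 3 in 30.9%, against 34.8%. In 260623_at, 257162_s_at, 251780_s_at, 249600_s_at and AT5G54040 replicate 1 was the highest in all 6 genotypes, which held for 1.81% of all probe sets. 260623_at had 457, 154 and 128 in chl1-5, 335, 219 and 130 in chl1-9, 449.5, 154 and 154 in chl1-12, 313, 170 and 182 in T101A, 147, 109.7 and 93.99 in T101D, and 123, 52.5 and 51.9 in col. The labels do not say what the replicate number stands for. With genotype means removed, pairs of members had a median Pearson r of 0.0881 over the 18 arrays (1485 pairs), against 0.000635 for pairs of all probe sets at least as bright as the dimmest member. The members' median was 0.023 once replicate-number means were removed too. These are descriptions, as members share the arrays.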
